A study of Camellia sinensis with 9 samples.

Results

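The 288 unigenes described here had their highest expression at the albescent (W) stage of ‘Anji Baicha’ leaves, with a lower value at the yellow-green (YG) stage before it and at the re-greening (G) stage after it. They were chosen by the deposited FPKM values themselves. A unigene, which is an assembled transcript, entered when its expression, as FPKM (fragments scaled to the length of the unigene and to the mapped fragments of the library), was above 0 in all 3 stages and at least 5 in at least 1 of them, a filter that 14168 of the 179951 unigenes passed. Its log2(FPKM + 1) then had to be higher in W than in YG by at least 1, and lower in G than in W by at least 1, so that each step was at least 2-fold on that scale. The rule also set aside 78 unigenes of the carotenoid, chlorophyll and theanine pathways that the study had listed as differentially expressed, but 0 of these met the thresholds.

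‘Anji Baicha’ is a cultivar of tea (Camellia sinensis) with a reversible loss of leaf color in spring. In white leaf tissue the plastids build few thylakoid membranes and hold little chlorophyll, whereas re-greening brings back stacked membranes and photosynthesis. Nuclear genes supply most plastid proteins, and signals from the plastid in turn change nuclear gene expression, so a white leaf can differ from a green one in many transcripts outside the pigment pathways.

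The leaves came from plants 4 years old. The first leaves of the shoot were taken at the YG stage, the second or the third leaves 14 days later at the W stage, and the fifth or the sixth leaves on day 38 at the G stage, in warmer weather. Each stage had 3 libraries from separate plants, 9 libraries in all, but the files hold 1 pooled value per unigene and stage. The values therefore carry no replicate error, no test was possible, and every difference given is a difference between pooled values. Leaf color cannot be told apart from leaf position, collection date or temperature, and in whole leaves a change in the share of a cell type cannot be told apart from a change of RNA per cell.

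Over all unigenes the total FPKM was 382235 at YG, 349550 at W and 370564 at G. Across the 14168 filtered unigenes the median log2 difference was 0.03 between YG and W and 0.08 between W and G, so neither step had a large shift common to all unigenes. The number of fragments behind a value is unknown. No source used here pairs any of the 288 unigenes with a gene name, and 0 unigenes matched the reference gene table. The members are therefore described by their levels, and identifiers are given only for the 4 members with the most extreme steps, 2 for the rise and 2 for the fall.

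A peak at W was an uncommon pattern. From YG to W, 1521 filtered unigenes (10.7%) were higher by at least 1 on the log2 scale, and from W to G, 1232 (8.7%) were lower by at least 1. Both applied to the 288 members, or 2.03% of the filtered unigenes. After the higher value in W, 873 of the 1521 unigenes kept within 1 of it in G and 360 were higher again by at least 1. Of the 1232 unigenes that were lower in G than in W, 768 had been level between YG and W and 176 had already been lower in W than in YG. The mirror pattern, a dip at W of at least 1 on both sides, was found for 108 unigenes (0.762%).

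The W stage was also the least frequent stage of highest expression. The highest FPKM lay in W for 2527 filtered unigenes (17.8%), in G for 6423 and in YG for 5218. W was likewise the least frequent stage of lowest expression. The lowest FPKM lay in W for 3011 filtered unigenes (21.3%), in YG for 6090 and in G for 5067. The 288 members made up 11.4% of the 2527, and the other unigenes with a maximum in W had at least 1 step below the threshold.

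**Figure D1:**
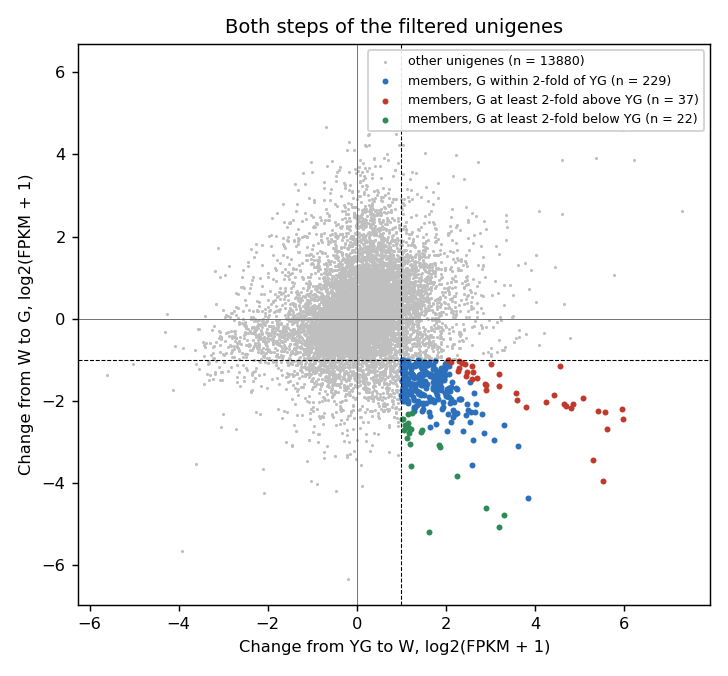
Change in log2(FPKM + 1) from YG to W (horizontal axis) and from W to G (vertical axis) for each of the 14168 filtered unigenes, with the thresholds of 1 and -1 as dashed lines and the 288 members in color by how G compared with YG. The members fill the lower right corner, with 229 where G was within 2-fold of YG and a thin arm of large rises to the right.

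Most members had moderate levels. The 288 unigenes had a median FPKM of 2.35 at YG, 9.13 at W and 2.18 at G. In W the values ranged from 5.002 to 1613, with quartiles at 6.51 and 15.5, and 160 members (55.6%) lay between 5 and 10. An FPKM below 1 was listed for 46 members in YG and for 50 in G, and for 16 in both stages. The lowest values were 0.103 in YG and 0.248 in G.

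The sizes of both steps were alike in the middle of their ranges. The difference from YG to W had a median of 1.61 and a range of 1.002 to 5.97 on the log2(FPKM + 1) scale. From W to G the median was -1.66 and the values ranged from -5.19 to -1.002. The rise was the larger step in 145 members and the fall in 143. As plain ratios of FPKM, W exceeded YG by a median of 4.07-fold and G by a median of 4.18-fold, and the W value was 66.9% of the sum over the stages in the median member. Both steps reached 2 on the log2 scale, or 4-fold, in 43 members and 3 in 6 members. No member had both steps at 4 or above.

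Because the rule sets no bound on G against YG, the members differed in where they ended. In 229 of them (79.5%) the G value was within 1 of the YG value on the log2(FPKM + 1) scale. It was higher by at least 1 in 37 members (12.8%) and lower by at least 1 in 22 (7.64%). Over all filtered unigenes, G exceeded YG by this measure in 22.8% and YG exceeded G in 15.9%, but the members' shares are bounded by their fall from W and cannot be read against these. The median of the difference between G and YG in the members was 0.01.

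The group that ended higher held most of the members with the highest expression, which follows in part from the rule. With the required fall, a member could end higher only after a rise well past the threshold. Low W values leave little room for that on the FPKM + 1 scale. Of the 160 members with a W value between 5 and 10, 9 ended higher, against 15 of the 24 at 100 or above. The median FPKM of the group was 1.57 at YG, 46.9 at W and 7.10 at G. The 229 members that returned to within 2-fold had medians of 2.23, 8.25 and 2.02 in the same order, and their W values ranged from 5.002 to 541. The 22 members that ended lower had medians of 4.06 at YG, 13.6 at W and 0.831 at G, so their median YG value was the highest of the 3 groups and their median G value the lowest.

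**Figure D2:**
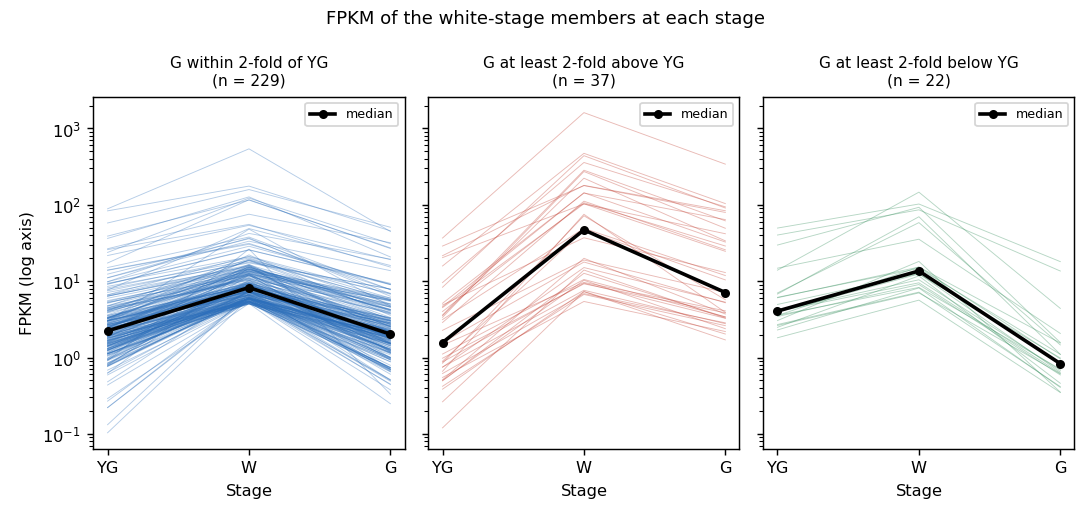
FPKM (log axis) of each of the 288 members at the YG, W and G stages, 1 thin line per unigene, with the median of each panel as a black line. The panels separate the 229 members with G within 2-fold of YG, the 37 with G at least 2-fold above YG and the 22 with G at least 2-fold below YG on the FPKM + 1 scale. The W median is 46.9 in the second panel, against 8.25 and 13.6 in the others. Members of the second panel needed a rise well past the threshold to end there.

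The share of members changed with the expression level. It was 2.21% of the 7255 filtered unigenes with a highest FPKM between 5 and 10, 1.92% of those between 10 and 20 and 0.995% of those between 20 and 50. Among the 586 unigenes between 50 and 100 it was 1.54%, and among the 353 unigenes at 100 or above it was 6.80%, or 24 members. None of these 353 unigenes had a dip at W. The dip share was 0.951% of the unigenes between 5 and 10 (69 unigenes) and 0.762% of all filtered unigenes. At such shares few dips would fall among 353 unigenes. Rises from YG to W were themselves frequent at this level. Of the 353 unigenes, 103 rose by at least 1, against 611 of the 7255 between 5 and 10. Of those that rose, 23.3% at 100 or above and 26.2% between 5 and 10 then fell by at least 1. In the bands between, this was 7.5% to 17.7%. These shares come from 1 value per stage, and whether they differ beyond the error of the values was not tested.

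The 24 members with an FPKM of at least 100 in W held 64.5% of the members' summed FPKM in that stage. All 288 members together summed to an FPKM of 1464 at YG, 9835 at W and 2222 at G, or 0.383%, 2.81% and 0.600% of the totals over all unigenes. The 160 members with a W value below 10 held 11.3% of the members' sum at W.

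Most of the 24 belonged to the group that ended higher in G than in YG, which held 15 of them, against 7 that returned to within 2-fold and 2 that ended lower. The member with the highest W value had an FPKM of 36.7 at YG, 1613 at W and 341 at G. It stood 2.98-fold above the next member, which had 88.7 at YG, 541 at W and 44.8 at G and thus came back below its YG level. The third highest had 15.8, 473 and 104, and the fourth 8.33, 441 and 90.8, in the order YG, W and G. The YG values of these 4 unigenes lay apart by up to 10.6-fold.

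A rise of at least 4 on the log2 scale, which is 16-fold for FPKM + 1, was found in 15 members, and 12 of these were among the 24 with an FPKM of at least 100 in W. This grouping was made after the values were seen. The 12 had YG values between 2.88 and 36.7, W values between 103 and 1613 and G values between 24.6 and 341. All 12 ended higher in G than in YG, by 5.46- to 17.1-fold as a plain ratio. The grouping selects for a YG value that is low against W, so this follows unless the fall is about as large as the rise. Only 5 of the 288 members had a fall of at least 4. In the 12, the G value was 15.1% to 44.9% of the W value, with a median of 22.3%. The fall that the rule requires caps this share. It was not particular to the 12, as its median was 24.2% in the 160 members with a W value below 10. The other 3 members with such a rise had W values of 46.9 to 75.2 and YG values below 1.

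Of the 14168 filtered unigenes, 31 had a rise of at least 4 from YG to W. In 15 of the 31 the G value was lower by at least 1, as the rule requires, and in 11 it was higher by at least 1. Among all 1521 unigenes that were higher in W by at least 1, the members were 18.9%. The rise and the fall share 1 pooled W value, so an error in it would enlarge or shrink both. These shares therefore cannot show that steeper rises were followed more often by a fall.

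**Figure D3:**
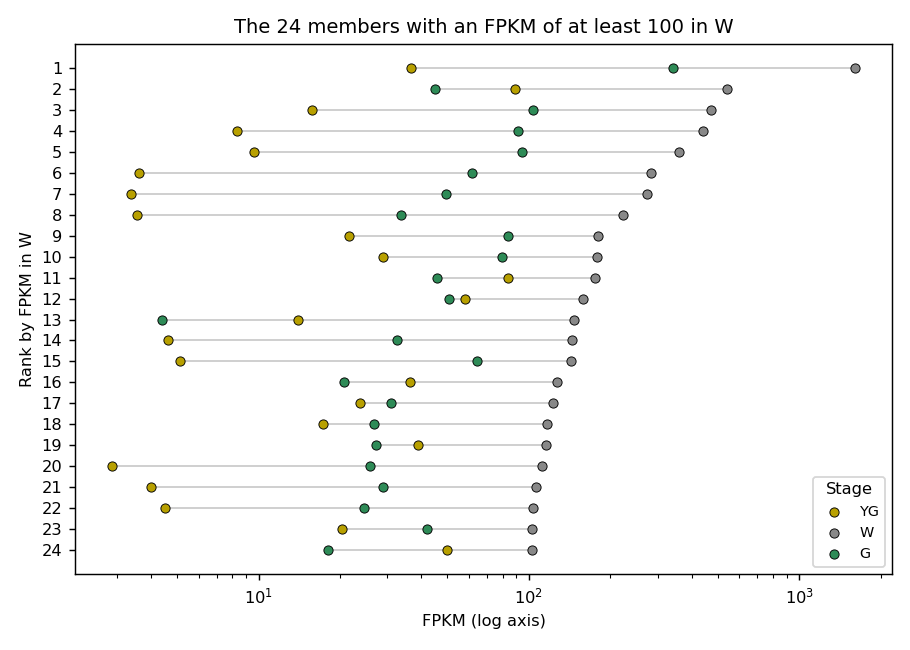
FPKM (log axis) at YG, W and G for the 24 members with an FPKM of at least 100 in W, 1 row per unigene, ranked by the W value. The G point lies to the right of the YG point in most rows and to the left of it in 7, and the YG points spread from 2.88 to 88.7.

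The largest rises from YG to W belonged to unigene95398 and unigene169456. The FPKM of unigene95398 was 3.36 at YG, 273 at W and 49.3 at G, with log2 differences of 5.97 and -2.45. In unigene169456 it was 3.60, 284 and 61.7, with log2 differences of 5.95 and -2.18. Both unigenes thus had nearly the same profile, with W at 81.3 and 78.8 times the YG value and G at 14.7 and 17.1 times the YG value. They ranked seventh and sixth by W level among the members, and had the fourth and the fifth largest rise from YG to W of all filtered unigenes.

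The largest falls from W to G belonged to unigene31055 and unigene17198. The FPKM of unigene31055 was 29.7 at YG, 92.8 at W and 1.57 at G, with log2 differences of 1.61 and -5.19. Its G value was thus far below its YG value as well. In unigene17198 the FPKM was 6.78, 69.8 and 1.10, with log2 differences of 3.19 and -5.08. They had the third and the fourth largest fall from W to G of all filtered unigenes, and both were among the 22 members that ended lower.

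The sharpest peaks were ranked by the smaller of both steps, and the first 3 had W values above the upper quartile of the members but below 100. The first had an FPKM of 0.659 at YG, 75.2 at W and 3.90 at G, with log2 differences of 5.52 and -3.96. The second had 0.909, 26.3 and 0.331, with 3.84 and -4.36, and came closest to equal values on both sides of W among the first 3. The third had 0.842, 71.9 and 5.72, with 5.31 and -3.44. The YG values of these 3 unigenes were all below 1, and a rise from so low a value changes most with the pseudocount.

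At the edge of the rule the values inside and outside were close. The member with the smallest step had an FPKM of 2.71 at YG, 6.59 at W and 2.79 at G, with log2 differences of 1.03 and -1.00155. The nearest unigene outside had 7.56, 16.1 and 3.97, with a rise of 0.99971 and a fall to -1.78. The smaller step lay between 1 and 1.1 in 56 members, and between 0.9 and 1 in 65 unigenes that did not enter.

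The pigment and theanine pathways, for which the study gives gene names, were absent from the members. Its lists name 155 different unigenes, 78 of which passed the filter. Of these, 11 were higher in W than in YG by at least 1 (14.1%, against 10.7% of the filtered unigenes) and 6 were lower in G than in W (7.69%, against 8.7%), but 0 did both. Only 15 of the 78 could have become members, since the rule set the other 63 aside by name. With 2.03% of the filtered unigenes as members, a count of 0 among 15 unigenes is near the background.

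Of the 38 chlorophyll unigenes that passed the filter, 14 had their highest FPKM in W (36.8%, against 17.8% of the filtered unigenes), while 15 had it in G and 9 in YG. In the carotenoid list this was 1 of 19 and in the theanine list 0 of 21. Among the unigenes that also passed the filter after rescaling, the share for chlorophyll was 37.8% under upper-quartile scaling, 41.7% with equal sums of FPKM and 43.2% after quantile normalization, with 18.3%, 23.8% and 23.2% over the filtered unigenes. The study had chosen 6 of the 14 as differentially expressed on the same libraries, and the difference between the shares was not tested. The 14 unigenes had a median log2 difference of 0.32 from YG to W and of -0.31 from W to G, and 0 of them met the fall threshold. Some had hardly any rise, as HEME unigene90351 with 6.01 at YG and 6.19 at W, a log2 difference of 0.04.

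Unigenes of 1 enzyme did not share a stage of highest expression in several cases. The roles given here are those known in Arabidopsis. HEMA unigene1366, for glutamyl-tRNA reductase at the entry to tetrapyrrole synthesis, had an FPKM of 6.81 at YG, 9.45 at W and 7.37 at G, but the other 4 HEMA unigenes that passed the filter were highest in G. One of these, HEMA unigene24328, had 4.15, 6.41 and 12.7. PORA unigene8789, for the enzyme that reduces protochlorophyllide in the light, had 21.9, 26.1 and 21.7. The other 5 PORA unigenes that passed the filter were highest in YG and lowest in G. Of these, PORA unigene7972 had 36.2, 19.2 and 1.87, and PORA unigene62053 had 29.0, 13.2 and 0.822. Among the unigenes of the chlorophyllase CLH that passed the filter, 2 had their highest value in W and 2 had it in G. CLH unigene56286 and CLH unigene58581 did not pass it and were highest in YG. The 2 highest in W were CLH unigene58748 with 13.1, 16.8 and 13.8, and CLH unigene90639 with 10.1, 12.9 and 6.81. Of the unigenes highest in W named in this paragraph, only CLH unigene90639 was listed by the study as differentially expressed. HEMA unigene1366, PORA unigene8789 and CLH unigene58748 were not, and their values were near level.

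GSA, CHLI and CHLM each had 1 unigene past the filter, with its highest value in W. GSA unigene90011, for the aminotransferase that forms 5-aminolevulinate, had 86.6 at YG, 95.7 at W and 79.9 at G. CHLI unigene8500, for a subunit of the magnesium chelatase that inserts magnesium into protoporphyrin IX, had 42.9, 59.6 and 45.3. Its log2 differences of 0.46 and -0.39 came closest to the rule among all 78 pathway unigenes. CHLH unigene24228, for another subunit of the chelatase, was highest in G, with 49.2, 88.4 and 209. CHLM unigene1808, for the methyltransferase that acts next, had 25.5, 31.6 and 25.4.

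For CHLD, CHLP, NYC1 and CAO the gene symbol and the enzyme name in the study's list do not belong together, so no role is given for their unigenes. The unigene listed as NYC1 unigene37738 was the one of the 14 past the rise threshold, with FPKM values of 15.9, 34.7 and 27.9 and log2 differences of 1.08 and -0.30. The other unigene of the 14 listed as NYC1, unigene26042, lay just under it. The study, which compared its separate libraries, reported significantly higher expression of both in W than in either other stage. All of the steps of the 14 unigenes were smaller than the median step of the members, and whether they exceed the error of the values was not tested here. The study, with 3 libraries per stage, listed 6 of the 14 as differentially expressed. CHLM unigene1808 was among the 6, whereas GSA unigene90011 and CHLI unigene8500 were not.

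The members were unevenly spread over the unigene numbers, which the rule did not use. What the order of the numbers reflects is not stated in the sources used here. In groups of 10000 consecutive numbers, the share of members ranged from 0.574% between 1 and 10000 to 10.9% between 170001 and 179951, and the largest number of members, 64 of 659 filtered unigenes (9.71%), lay between 120001 and 130000. A further 40 members lay between 80001 and 90000, 3.49% of the filtered unigenes there.

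Split at 100000, a limit set after the shares were seen, 133 members were among the 11497 filtered unigenes with lower numbers (1.16%) and 155 among the 2671 with higher numbers (5.80%). Among unigenes with a highest FPKM between 5 and 10 the shares were 0.968% and 6.02%, and between 10 and 100 they were 1.02% and 5.31%. At 100 or above they were close, with 22 of 327 and 2 of 26 unigenes. Unigenes with high numbers had large steps more often in general. At least 1 of the steps reached 1 in either direction in 49.2% of them, against 29.5% of those with lower numbers, and a dip at W was found in 2.32% against 0.400%.

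The members on both sides of this limit also differed in level. The 133 with lower numbers had median FPKM values of 2.99 at YG, 13.7 at W and 2.83 at G. The 155 with higher numbers had 1.98, 7.91 and 1.89, and 130 of them returned in G to within 2-fold of YG, against 99 of the 133. Of the 24 members with an FPKM of at least 100 in W, 22 had lower numbers.

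**Figure D4:**
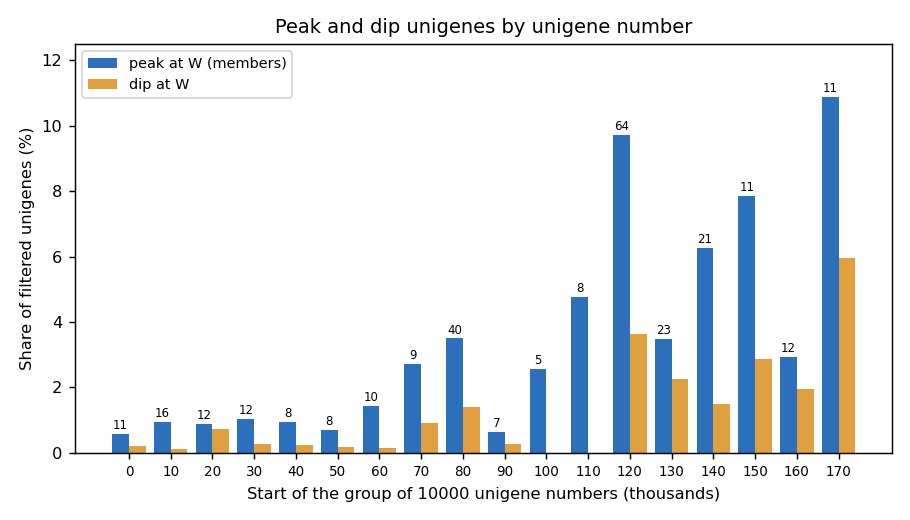
Share of the filtered unigenes with a peak at W (the 288 members) and with a dip at W (108 unigenes) in each group of 10000 consecutive unigene numbers, with the number of members above each bar. The share of members is lowest in the first group (0.574%) and highest in the last (10.9%), and the largest number, 64 members, lies between 120001 and 130000.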

How the data were processed

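RNA of ‘Anji Baicha’ leaves was sequenced in 3 libraries per stage, with the stage taken from the labels. The authors filtered the reads, assembled unigenes de novo with Trinity and cap3/PriceTI, and computed FPKM with Cufflinks, for which the submitters' processing notes name version 2.1.1 and the study's methods an earlier one. The FPKM values they deposited hold 1 value per unigene and stage. How libraries were combined, how reads shared by similar unigenes were counted and which aligner was used are not given in the sources used here. Pooled values hide plant-to-plant spread, and since FPKM is relative to the mapped fragments, a few very abundant unigenes can lower the values of others.

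The stage files were joined on the unigene identifier. Steps were computed as differences of log2(FPKM + 1), a scale that understates changes of low values. With 1 value per stage no fit on libraries was possible, so unigenes were counted and no p-value is given. Low values were searched for a shared step between stages, and the commonest ratio held under 2% of them, so no depth was derived. A value of 0 can be a failed estimate, and such unigenes were left out by the rule. Unigenes were named by 3 rules: members with a gene name in the study's lists (0 found), pathway unigenes set aside that met the thresholds (0 found), and the 4 members with the most extreme steps, 2 for the rise and 2 for the fall. The chlorophyll unigenes were named after their values were seen, and members without a name are given by rank. The members and lists were chosen with earlier results of these data known. The counting was checked on simulated data with peaks well past the thresholds, which says nothing about members near them. Python 3.11.15 with pandas 2.3.3, numpy 2.4.6 and matplotlib 3.10.9 was used. Other pseudocounts, filters, scalings and step sizes were tried.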

Additional observations from a re-analysis of the deposited data

How the results depend on the processing

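The number of members depended on the filter and on the step size. A minimum FPKM of 1, and no minimum at all, both gave 577 unigenes, with 518 that returned in G to within 2-fold of YG, and a minimum of 10 gave 128 and 85. Keeping values listed at 0 gave 502. Steps of 1.5-fold gave 690 and 541, and steps of 4-fold gave 43 and 26. With unigene numbers up to 100000 alone, chosen after the data were examined, they were 133 and 99. The count was 290 under upper-quartile scaling, 374 with equal sums of FPKM, 351 after quantile normalization, 374 with a pseudocount of 0.1 and 388 with none. All 288 members were kept in these, except under upper-quartile scaling, which kept 286. For the smaller pseudocounts and equal sums this was fixed in advance. A smaller pseudocount enlarges both steps of every member. Equal sums multiplied W by 1.05, YG by 0.961 and G by 0.992, which also enlarges both. Equal sums moved the median step from YG to W of the filtered unigenes by 0.13, and quantile normalization moved that from W to G by -0.16. The peak outnumbered the dip in each alternative run, most narrowly without a pseudocount, with 388 against 201. The pathway lists had 0 unigenes in the peak in each of them. No alternative dropped the minimum and kept values listed at 0 together. Some list unigenes met both steps with 0 in YG and G and a W value below 5, so none of the alternatives could include them. The 4 named members kept both steps above 1 in size under the 5 scalings and pseudocounts. No paired analysis was possible because the files hold 1 value per stage, and leaving out replicates was not run for the same reason.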

Other observations

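A further 214 unigenes met both steps and had an FPKM of at least 5 in W, but were listed at 0 in YG, in G or in both, and were therefore no members. They were listed at 0 in both stages in 74 cases, in YG alone in 78 and in G alone in 62. Their W values were low, with a median of 6.40 and a highest value of 95.6, and 196 of them lay below 10. None of them was on the lists of the carotenoid, chlorophyll and theanine pathways. Of the 214, 209 had unigene numbers above 100000, and 95 lay between 150001 and 160000. No fold is given for them, since a value of 0 can be a failed estimate. In the mirror pattern, 89 unigenes were listed at 0 in W.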
